A study of Mus musculus with 3 samples.

Results

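Leukocytes leave the blood where the vessel wall shows them adhesion molecules, and 8 genes of this step were followed in the non-cardiomyocytes (non-CMs) of the mouse heart under pressure overload. The genes were *Vcam1*, *Icam1*, *Icam2*, *Sele*, *Selp*, *Ackr1*, *Lrg1* and *Plvap*, taken by name from the 27998 genes of the count matrices for their part in leukocyte adhesion and endothelial activation. Their levels were compared between endothelial cells (ECs), fibroblasts (FBs), mural cells (smooth muscle cells and pericytes) and blood cells, between 3 phases, and between subtypes of ECs. The cells came from the ventricles of wild-type mice. One group was healthy (0 weeks, labelled Control), and the others were in adaptive hypertrophy 2 weeks and in heart failure 12 weeks after transverse aortic constriction (TAC), a narrowing of the aortic arch that raises the load on the left ventricle. According to the methods of the study the operated mice were male C57BL/6J JCL mice of 8 weeks of age, the atria were taken off, and the tissue was digested with collagenase and passed over a Percoll gradient that leaves CMs out. Each phase was 1 droplet library, and the number of hearts in it is not given in the sources used here.

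Adhesion runs in steps. The selectins E-selectin (*Sele*) and P-selectin (*Selp*) let leukocytes roll along the endothelium, chemokines presented on its surface switch on leukocyte integrins, and the immunoglobulin-family molecules VCAM1, ICAM1 and ICAM2 then hold the integrins firmly. *Ackr1* encodes an atypical receptor that binds chemokines without signalling through G proteins and is a known marker of venular endothelium, *Lrg1* encodes a secreted glycoprotein known from vessel growth and inflammation, and *Plvap* encodes the protein of the diaphragms that span endothelial fenestrae and caveolae. In resting tissue *Icam2* is known as a constitutive endothelial gene, whereas *Sele* and *Vcam1* are known to be induced by inflammatory cytokines through NF-kappaB, and P-selectin is stored with von Willebrand factor in Weibel-Palade bodies.

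The filter of at least 200 genes per cell kept 3892 cells at 0 weeks, 2231 at 2 weeks and 792 at 12 weeks, with a median of 2589, 1495 and 1434 unique molecular identifiers (UMIs, 1 per captured mRNA molecule). A cell was put in the class whose 10 marker genes had the highest UMI sum when this sum was at least 3 UMIs and at least 2 times the sum of any other class. The gate gave 1098, 1766 and 308 ECs, 1261, 100 and 195 FBs, 409, 68 and 40 mural cells, and 945, 192 and 162 blood cells, in the order 0, 2 and 12 weeks, and none of the 8 genes was among its markers. Mural cells held the EC markers at 1622 to 2156 counts per 1000000 UMIs (CPM) in sum, against 6872 to 8376 CPM in ECs and 103 to 226 CPM in FBs and blood cells. The libraries shared 5 cell barcodes (0 and 2 weeks), 1 (0 and 12 weeks) and 3 (2 and 12 weeks). In ECs of the 12-week library erythroid genes summed to 6998 CPM, against 98.4 and 312 CPM at 0 and 2 weeks, although the methods include lysis of red cells. The part of this erythroid RNA in the values below was not tested.

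Levels are given in CPM, from the pooled UMIs of all cells in a group. They follow tags at the 3′ end of transcripts and were compared within a gene, not between genes. The intervals in brackets are 95% intervals (Clopper-Pearson for shares of cells, exact Poisson for levels and exact conditional binomial for ratios) and cover counting error only. With 1 library per phase there was no test between phases, and phase and library cannot be told apart. Over the 3 phases together *Vcam1*, *Icam2*, *Sele*, *Selp*, *Lrg1* and *Plvap* had their highest level in ECs, *Icam1* in blood cells, and *Ackr1* in FBs, where its reads are uncertain for a reason given below. For *Vcam1* the pooled intervals overlapped, with 136 CPM (127 to 145) in ECs and 129 CPM (119 to 139) in FBs, and its order differed between phases.

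**Figure D1:**
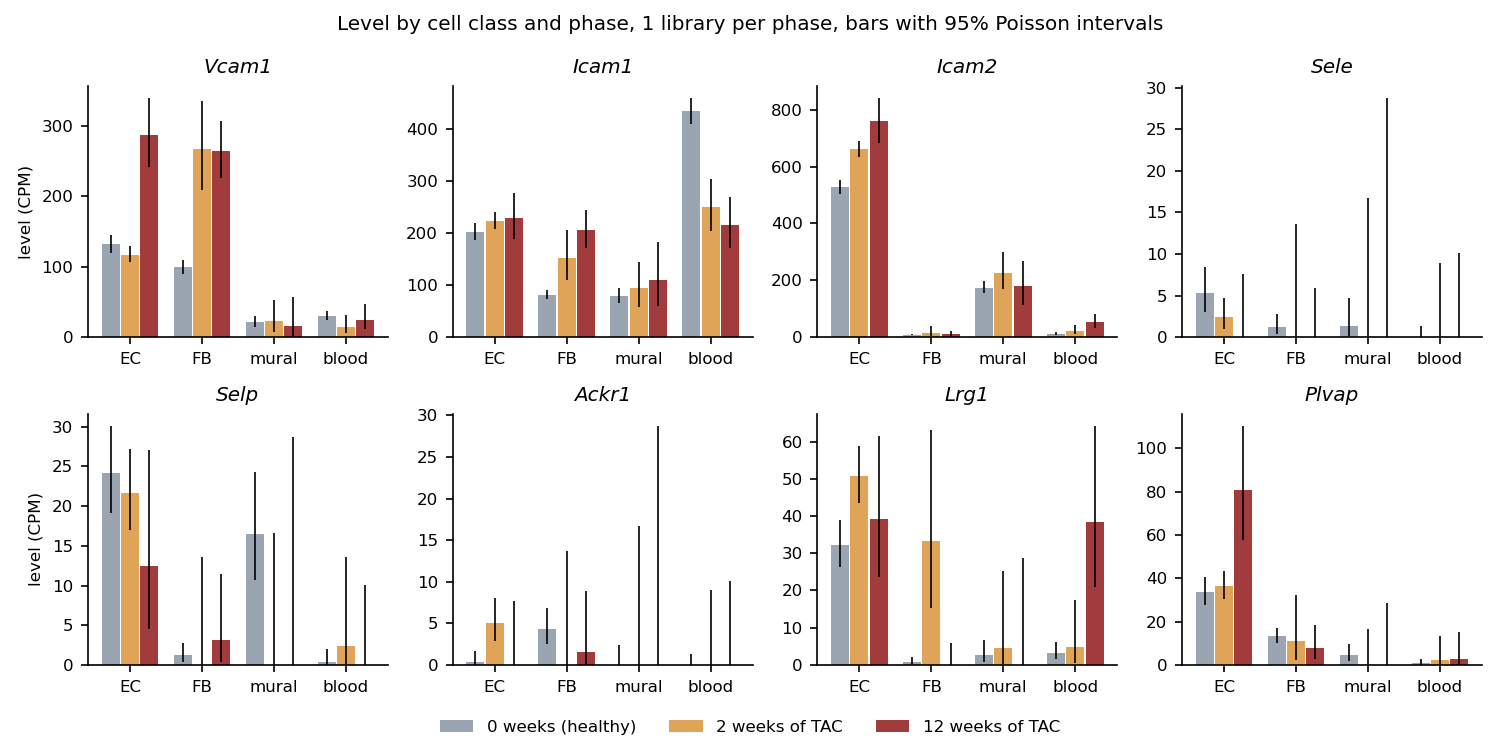
Level (CPM) of each gene in ECs, FBs, mural cells and blood cells at 0, 2 and 12 weeks, 1 library per phase, with 95% Poisson intervals as error bars. *Icam2* stands out in ECs at every phase (527 to 760 CPM), *Icam1* is spread over all classes, and *Vcam1* is at about the same height in ECs and FBs at 12 weeks.

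*Vcam1* (ENSMUSG00000027962, chr3:116109949-116129688 of GRCm38, minus strand) encodes the ligand of integrin alpha-4 beta-1 on monocytes and lymphocytes. In ECs its level was 132 CPM (119.95 to 145) at 0 weeks, 117 CPM (106 to 129.5) at 2 weeks and 288 CPM (242 to 339.7) at 12 weeks, from 427, 396 and 139 UMIs. In FBs the level was 99.5 CPM (90.1 to 109.5) at 0 weeks, 267 CPM (209 to 336) at 2 weeks and 264 CPM (226 to 308) at 12 weeks, from 415, 72 and 166 UMIs. The 2 classes thus differed in their course, with the healthy and 2-week values close in ECs and the 2-week and 12-week values close in FBs. At 2 weeks the level in FBs was 2.27 times that in ECs (1.74 to 2.93), against 0.752 times at 0 weeks (0.656 to 0.863) and 0.918 times at 12 weeks (0.729 to 1.16). Mural cells had *Vcam1* at 15.6 to 22.6 CPM, and blood cells at 30.2, 14.6 and 24.6 CPM, with 82 of the 97 UMIs of blood cells in the healthy library.

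*Icam1* (ENSMUSG00000037405, chr9:21015985-21028817, plus strand) encodes the ligand of the beta-2 integrins LFA-1 and Mac-1 and was the member most widely spread over the classes. In blood cells its level was 434 CPM (409.8 to 459.7) at 0 weeks, 250.4 CPM (204 to 304) at 2 weeks and 216 CPM (171 to 269) at 12 weeks. In ECs it was 203 CPM (188 to 219), 224 CPM (208 to 240.3) and 229.8 CPM (189 to 277) at the same times. In FBs it was 82.0 CPM (73.5 to 91.1), 152 CPM (109 to 206) and 205 CPM (171 to 244). Mural cells had 79.1 CPM (65.6 to 94.6), 94.97 CPM (58.8 to 145) and 109 CPM (59.7 to 183). The order of the classes thus differed between the libraries, from blood cells at 2.14 times (1.94 to 2.36) and FBs at 0.404 times (0.354 to 0.461) the level of ECs in the healthy library to overlapping intervals of these 3 classes at 12 weeks, where blood cells were at 0.941 times (0.696 to 1.27) and FBs at 0.894 times (0.688 to 1.16) the level of ECs. The interval of mural cells at 12 weeks lay below that of ECs. A UMI of *Icam1* was in 32.4% of healthy ECs (median depth 2203.5 UMIs) and in 49.8% of healthy blood cells (2610 UMIs), against 1 of 41 cells gated as neural (1914 UMIs).

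*Icam2* (ENSMUSG00000001029, chr11:106377656-106388075, minus strand), another beta-2 integrin ligand, was the EC gene of the set, with 90.6% of its UMIs over the 4 classes in ECs. Its level in ECs was 527 CPM (502 to 553) at 0 weeks, 661 CPM (634 to 689) at 2 weeks and 760 CPM (684 to 841) at 12 weeks, and a UMI was in 65.9%, 58.4% and 57.5% of ECs. FBs had 8.87, 14.8 and 9.55 CPM, and a UMI in 1.90% of healthy cells (median depth 2972 UMIs). Mural cells had 175, 226 and 179 CPM. Their *Icam2* came with EC markers at nearly the ratio found in ECs, 8.57 *Icam2* UMIs per 100 UMIs of the EC list in mural cells against 7.98 in ECs, and the part of EC RNA in the mural level was not tested otherwise. In blood cells *Icam2* was at 11.8, 21.9 and 52.0 CPM.

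The selectins were sparse in ECs, and *Sele* more so than *Selp*. *Sele* (ENSMUSG00000026582, chr1:164048234-164057677, plus strand) had 17 UMIs in ECs at 0 weeks and 8 at 2 weeks, which gave 5.26 CPM (3.07 to 8.43) and 2.37 CPM (1.02 to 4.67). At 12 weeks it had 0 UMIs in 308 ECs, which allows a level of up to 6.21 CPM, so that a difference from the healthy level was not detectable at this depth. The 1299 blood cells had 0 UMIs too, which allows 0.858 CPM. *Selp* (ENSMUSG00000026580, chr1:164115264-164150026, plus strand) lies next to *Sele* on chromosome 1 and had 24.1 CPM (19.1 to 30.1) at 0 weeks, 21.6 CPM (17.0 to 27.2) at 2 weeks and 12.4 CPM (4.56 to 27.0) at 12 weeks, from 78, 73 and 6 UMIs. A UMI of *Selp* was in 3.83% of healthy ECs and in 0.106% of healthy blood cells. Platelets carry *Selp* too, and platelet genes were found in 14.1% of ECs with a *Selp* UMI and in 9.83% of the other ECs. Outside ECs, 25 *Selp* UMIs lay in 4 of the 409 healthy mural cells.

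*Ackr1* (ENSMUSG00000037872, chr1:173331886-173333750, minus strand) shares 493 bases with *Cadm3* (chr1:173333258-173367695) on the same strand, so that reads could not be split with certainty. It had 1 UMI in healthy ECs, 17 UMIs in 9 ECs at 2 weeks and 0 in ECs at 12 weeks, which gave 0.310 CPM (0.00784 to 1.72), 5.04 CPM (2.94 to 8.07) and a limit of 6.21 CPM. In FBs 18 UMIs were spread over 17 healthy cells, 1 or 2 in each. Of the 18 FBs with *Ackr1* over all phases 38.9% also had a *Cadm3* UMI, against 5.33% of the other FBs, and in ECs these numbers were 3 of 10 against 3 of 3162. The level of *Cadm3* was 21.9 CPM in FBs and 0.988 CPM in ECs, and 168 CPM in cells gated as neural, where *Cadm3* acts as a synaptic adhesion gene.

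*Lrg1* (ENSMUSG00000037095, chr17:56119678-56122001, minus strand) had 32.2 CPM (26.3 to 39.0) in ECs at 0 weeks, 50.7 CPM (43.4 to 58.9) at 2 weeks and 39.3 CPM (23.7 to 61.4) at 12 weeks, from 104, 171 and 19 UMIs. In blood cells it had 3.31 CPM (9 UMIs), 4.86 CPM (2 UMIs) and 38.3 CPM (14 UMIs). All 14 UMIs of blood cells at 12 weeks lay in 5 of the 13 cells with neutrophil markers, where *Lrg1* is known as a granule protein, and the neutrophil list summed to 12916 CPM in blood cells at 12 weeks against 1958 and 2327 CPM before. The blood cells thus differed in composition between the libraries. *Plvap* (ENSMUSG00000034845, chr8:71497765-71511752, minus strand) had 33.7 CPM (27.7 to 40.7) in ECs at 0 weeks, 36.5 CPM (30.3 to 43.5) at 2 weeks and 80.7 CPM (57.4 to 110.35) at 12 weeks, from 109, 123 and 39 UMIs. A *Plvap* UMI was in 3.83% of healthy ECs, in 3.01% of healthy FBs (13.2 CPM) and in 0.212% of healthy blood cells.

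Annotated genes of unknown function lie on the strand opposite to *Vcam1* (Gm43109), *Icam1* (Gm47079) and *Selp* (Gm16587 and Gm16548), and *Gtpbp3* lies opposite to *Plvap*. The sources used here do not say whether strand was used in counting, so that reads of these pairs are uncertain. *Icam2*, *Sele* and *Lrg1* overlap no other annotated gene.

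The sequences before the starts of *Icam1*, *Sele* and *Selp* are shown because cytokine control of this family is known to run through kappaB sites in promoters. *Sele* and *Selp*, neighbours on chromosome 1, differed in their matches to the letters searched. RefSeq (GRCm38.p6) gave a start for 5 of the 8 genes. The windows run 5′ to 3′ from 250 bases before to 50 bases after this start, and capitals mark matches on either strand to a kappaB-like motif (GGANATTCC), an AP-1 motif (TGACTCA) and a TATA box (TATAAA). The windows are chr9:21015690-21015989 (plus strand) for *Icam1*, chr1:164047984-164048283 (plus strand) for *Sele* and chr1:164115014-164115313 (plus strand) for *Selp*.
Icam1: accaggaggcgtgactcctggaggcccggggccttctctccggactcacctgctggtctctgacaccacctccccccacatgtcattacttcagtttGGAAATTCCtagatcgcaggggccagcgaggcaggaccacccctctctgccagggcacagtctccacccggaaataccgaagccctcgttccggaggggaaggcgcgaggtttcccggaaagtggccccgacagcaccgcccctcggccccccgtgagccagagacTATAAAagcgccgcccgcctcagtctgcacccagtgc
Sele: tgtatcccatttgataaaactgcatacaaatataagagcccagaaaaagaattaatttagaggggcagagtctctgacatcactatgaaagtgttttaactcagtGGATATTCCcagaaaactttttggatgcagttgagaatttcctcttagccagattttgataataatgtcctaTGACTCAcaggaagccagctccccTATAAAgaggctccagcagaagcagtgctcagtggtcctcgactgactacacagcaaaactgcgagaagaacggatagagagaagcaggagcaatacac
Selp: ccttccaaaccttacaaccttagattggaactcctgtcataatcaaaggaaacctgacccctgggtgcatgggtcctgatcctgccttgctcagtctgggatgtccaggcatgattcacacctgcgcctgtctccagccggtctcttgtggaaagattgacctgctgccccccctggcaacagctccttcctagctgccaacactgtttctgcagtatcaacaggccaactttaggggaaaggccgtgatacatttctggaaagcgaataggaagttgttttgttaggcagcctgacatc
The window of *Icam1* held the kappaB-like letters from base -153 to -145 and TATAAA from base 14 to 19, counted from the RefSeq start. That of *Sele* held the kappaB-like letters from base -145 to -137, the AP-1 letters from -73 to -67 and TATAAA from -49 to -44. The window of *Selp* held none of the 3, nor did that of *Ackr1*, and *Lrg1* held TATAAA from base 12 to 17. Of the 32851 promoter windows of the same length, 0.931% held the kappaB-like letters, 5.20% the AP-1 letters and 13.6% TATAAA, and no motif overlapped another in the windows shown. A match describes the letters of a window and no binding was measured. The letters were chosen after the data were seen and other forms of kappaB site were not searched, so that a window without a match can still hold one.

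The first comparison between phases asked which of the genes were higher or lower in ECs of the overloaded heart. From 0 to 2 weeks *Lrg1* was higher by a ratio of 1.57 (1.23 to 2.03) and *Icam2* by 1.25 (1.18 to 1.34), and the ratio of *Sele* was 0.451 with an interval (0.168 to 1.10) that included 1. *Vcam1* (0.888, 0.772 to 1.02), *Icam1* (1.10, 0.993 to 1.23), *Selp* (0.896, 0.642 to 1.25) and *Plvap* (1.08, 0.828 to 1.41) had intervals that included 1 too. Of the 7 genes with at least 20 UMIs over both phases, 1 was past 1.5-fold up (*Lrg1*), where 13.4% of all genes tested were, and 1 was past 1.5-fold down (*Sele*), where 13.5% were. The 7 genes had a median log2 ratio of 0.11 against 0.02 over all genes tested. *Ackr1* was under the 20 UMIs. As a group the genes were thus near the background from 0 to 2 weeks.

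From 0 to 12 weeks *Vcam1* was higher by a ratio of 2.18 (1.78 to 2.64), *Plvap* by 2.39 (1.62 to 3.48) and *Icam2* by 1.44 (1.28 to 1.61). *Selp* was at 0.514 times (0.183 to 1.17) from 6 UMIs, and *Icam1* (1.13, 0.918 to 1.39) and *Lrg1* (1.22, 0.707 to 2.00) had intervals around 1. Of the 6 genes tested 2 were past 1.5-fold up (*Vcam1* and *Plvap*), against 22.5% of all genes, and 1 down (*Selp*), against 16.5%, with a median log2 ratio of 0.41 against 0.10 over all genes. From 2 to 12 weeks the same 2 were past 1.5-fold up, *Vcam1* at 2.45 (2.01 to 2.98) and *Plvap* at 2.21 (1.503 to 3.20), where 20.4% of all genes were, and *Selp* was down, where 14.8% were, with a median of 0.12 against 0.09. The counts were thus close to the shares of all genes. The ratios of all genes were not ranked by size, and among the members tested *Vcam1* and *Plvap* had the largest ratios.

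These ratios rested on few cells. At 12 weeks 5 of the 308 ECs held 71.2% of the *Vcam1* UMIs of ECs, with 36 UMIs in 1 cell, against 20.6% and 17.2% in the top 5 cells at 0 and 2 weeks. *Plvap* had 79.5% of its 12-week UMIs in 5 cells and 21 UMIs in 1 of them. The share of ECs with a *Vcam1* UMI was 12.7% (10.7 to 14.8), 9.29% (7.97 to 10.7) and 9.42% (6.40 to 13.2), against 5.13% of healthy mural cells at a median depth of 2959 UMIs. After each cell was thinned to 1000 UMIs, which left out 468 of the 2-week and 110 of the 12-week ECs, the shares were 7.19%, 7.09% and 8.08% for *Vcam1* and 2.28%, 2.31% and 3.03% for *Plvap*. The share of ECs with the gene was thus about the same in the 3 phases, and the 12-week level came from more UMIs in few cells. When each cell had the same weight the ratios from 0 to 12 weeks were 1.30 for *Vcam1* and 1.28 for *Plvap*. *Icam2* was spread over many cells, with 10.4% of its 12-week UMIs in the top 5, and a thinned share of 40.6%, 46.1% and 52.0%.

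In FBs *Vcam1* and *Icam1* were higher at both times after TAC. *Vcam1* was at 2.68 times (2.06 to 3.45) the healthy level at 2 weeks and at 2.66 times (2.21 to 3.19) at 12 weeks. *Icam1* was at 1.85 times (1.31 to 2.56) and 2.50 times (2.03 to 3.08). The thinned share of FBs with a UMI moved the same way, from 9.99% to 21.1% and 20.7% for *Vcam1* and from 7.14% to 11.3% and 17.1% for *Icam1*. Thinning left out 29 of the 2-week and 31 of the 12-week FBs. The unthinned shares were 20.5% (18.3 to 22.8), 31.0% (22.1 to 41.0) and 36.9% (30.1 to 44.1) for *Vcam1*, at median depths of 2972, 1559.5 and 2408 UMIs, and the top 5 FBs held 9.88%, 47.2% and 30.7% of its UMIs. For *Icam1* the top 5 held 7.60%, 51.2% and 31.0%, so that its 2-week level in FBs rested on few cells. The 2-week FBs were 100 cells with a median of 7.62% mitochondrial UMIs against 2.61% in healthy FBs and 4.76% at 12 weeks, and the part of this in the ratios was not tested.

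At 2 weeks 3 of the 4 genes tested in FBs were past 1.5-fold up (*Vcam1*, *Icam1* and *Icam2*), against 21.9% of all genes, and 0 were down, against 23.9%, with a median log2 ratio of 0.81 against -0.01. The *Icam2* ratio of 1.67 came from 4 UMIs at 2 weeks (0.432 to 4.65) and turned below 1 under other gates. At 12 weeks 2 were up (*Vcam1* and *Icam1*), against 16.1%, and 1 was down (*Plvap*, 0.604, 0.189 to 1.496), against 16.4%, with a median of 0.72 against 0.01. In mural cells *Icam1* had ratios of 1.20 (0.717 to 1.92) and 1.38 (0.733 to 2.41) and *Vcam1* of 1.04 (0.317 to 2.68) and 0.717 (0.0834 to 2.80), all with intervals that included 1.

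In blood cells *Icam1* had the opposite course from FBs, at 0.577 times (0.467 to 0.706) the healthy level at 2 weeks and 0.498 times (0.391 to 0.625) at 12 weeks. The thinned share with a UMI was 30.3%, 16.4% and 12.5%. Of the 3 genes tested at 2 weeks 1 was past 1.5-fold up (*Icam2*, 1.86, 0.781 to 3.99), against 21.6% of all genes, and 2 were down (*Vcam1*, 0.484, 0.173 to 1.10, and *Icam1*), against 24.7%, with a median log2 ratio of -0.79 against -0.02. Of the 4 tested at 12 weeks 2 were up (*Icam2*, 4.42, 2.37 to 8.04, and *Lrg1*, 11.6, 4.67 to 30.3), against 25.8%, and 1 was down (*Icam1*), against 22.3%, with a median of 0.93 against 0.07. The blood cells of the 12-week library were another mixture, with 51 B cells and 16 T cells of 162 by their markers against 30 and 7 of 945 in the healthy library. Among cells with macrophage and monocyte markers alone (888, 161 and 60 cells) *Icam1* was at 452 CPM (427 to 479), 209.9 CPM (165 to 263) and 397 CPM (308 to 504). In these cells the 12-week level was thus 0.879 times the healthy one with an interval (0.676 to 1.12) that included 1, whereas the 2-week level was at 0.464 times (0.363 to 0.587).

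**Figure D2:**
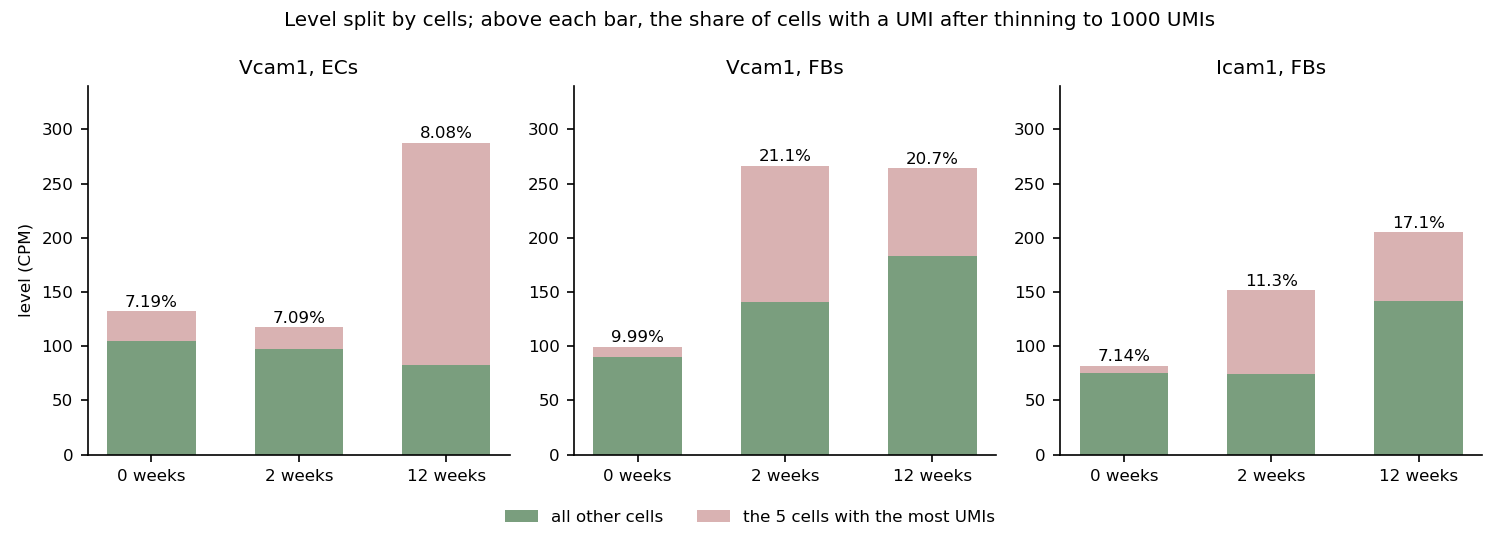
Level (CPM) of *Vcam1* in ECs, of *Vcam1* in FBs and of *Icam1* in FBs at 0, 2 and 12 weeks, with each bar split into the 5 cells with the most UMIs of the gene and all other cells, and the share of cells with a UMI after thinning to 1000 UMIs above it. The top 5 cells make up most of the 12-week *Vcam1* bar in ECs (71.2%), whereas in FBs the thinned share is higher at 2 and 12 weeks (21.1% and 20.7%) than at 0 weeks (9.99%).

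The next question was in which ECs the genes were found. ECs were put in the subtype whose marker list was most enriched over the amount expected from the depth of the cell, with at least 3 UMIs of the list and at least 3 times the expected amount, and otherwise in the capillary group if they had at least 3 UMIs of capillary markers such as *Car4* and *Rgcc*. Over the 3 phases this gave 2693 capillary, 248 arterial, 92 venous-list, 88 endocardial-list and 40 lymphatic ECs. No member was on a list. The arterial group had *Gja5* at 178 CPM against 1.48 CPM in capillary ECs and the lymphatic group *Prox1* at 572 against 2.80 CPM, as their names say. The other 2 names hold in part only. The venous list picked cells mostly by *Mgp* (11503 CPM), and these cells had *Vwf* at 2112 CPM and *Nr2f2* at 207 CPM but also the arterial genes *Fbln5* (784 CPM) and *Sema3g* (506 CPM). The endocardial list picked cells by *Cytl1* (3762 CPM) and *Npr3* (244 CPM), with *Hapln1*, a defining endocardial gene, at 0 in all ECs. The 2 groups are therefore named by their lists.

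*Vcam1* had its highest levels in venous-list and endocardial-list ECs. The capillary group still held 570 of its 962 EC UMIs (59.3%), against 85.8% of the EC UMIs of all genes. Its level was 93.8 CPM (86.2 to 102) in capillary ECs, 58.7 CPM (38.7 to 85.3) in arterial ECs, 827.5 CPM (701 to 970) in venous-list ECs and 840.4 CPM (730.6 to 962) in endocardial-list ECs. In lymphatic ECs it had 0 UMIs, which allows 31.8 CPM. Venous-list ECs were thus at 8.82 times (7.33 to 10.6) and endocardial-list ECs at 8.96 times (7.61 to 10.5) the capillary level, arterial ECs at 0.625 times (0.409 to 0.920), and the lymphatic limit lay below the capillary level. *Icam1* varied less, with 206 CPM (195 to 218) in capillary, 161 CPM (126 to 202) in arterial, 446 CPM (355 to 554) in venous-list, 340.2 CPM (272 to 420.6) in endocardial-list and 254 CPM (163 to 379) in lymphatic ECs. *Icam2* had another order, with its highest level, 967 CPM (879 to 1061), in arterial ECs, at 1.69 times (1.53 to 1.87) the capillary 571 CPM (552 to 589.9), and its lowest, 339 CPM (232 to 479), in lymphatic ECs.

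*Selp* followed *Vcam1*, with 14.0 CPM (11.2 to 17.3) in capillary ECs, 169 CPM (115 to 239.6) in venous-list ECs and 160.1 CPM (114 to 218) in endocardial-list ECs, and 1 UMI in arterial ECs. *Lrg1* and *Plvap* were also high in lymphatic ECs. *Lrg1* was at 24.8 CPM (21.0 to 29.1) in capillary, 403 CPM (316 to 506) in venous-list, 76.0 CPM (45.8 to 119) in endocardial-list and 360.5 CPM (249.6 to 504) in lymphatic ECs. *Plvap* was at 17.1 CPM (14.0 to 20.7), 256 CPM (188 to 340.3), 328 CPM (261 to 407) and 329 CPM (223 to 466.5) in the same groups. The ratio of venous-list to endocardial-list ECs was 5.30 (3.17 to 9.29) for *Lrg1*, and its interval included 1 for *Vcam1* (0.985, 0.794 to 1.22), *Icam1* (1.31, 0.957 to 1.80), *Icam2* (0.875, 0.699 to 1.09), *Selp* (1.05, 0.638 to 1.73) and *Plvap* (0.780, 0.533 to 1.13). With the venous list without *Mgp*, described below, the ratio was 5.52 (3.36 to 9.60) for *Lrg1* and 1.00 (0.844 to 1.20) for *Vcam1*, but 1.97 (1.53 to 2.57) for *Icam1*, 0.619 (0.507 to 0.754) for *Icam2* and 1.41 (1.003 to 1.99) for *Plvap*. Among these genes *Lrg1* thus had the ratio farthest from 1 in both settings, and whether *Icam1*, *Icam2* and *Plvap* differed between the 2 groups beyond counting error depended on the list. *Ackr1* had 14 of its 18 EC UMIs in 6 venous-list ECs, and *Sele* had 22 of its 25 in capillary ECs.

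Against capillary ECs 6 of the 7 genes tested were past 1.5-fold up in venous-list ECs (all but *Icam2*), where 21.9% of all genes were, and the same 6 in endocardial-list ECs, where 20.9% were. The *Sele* ratios in them, 1.504 and 2.21, came from 1 and 2 UMIs. The *Lrg1* ratio of endocardial-list ECs was 3.06 (1.79 to 4.95), but with clusters in place of gates it turned to 0.666, from 5.97 CPM (1.94 to 13.9) in the Gkn3/Cytl1 cluster described below against 8.97 CPM (6.62 to 11.9) in capillary clusters. The median log2 ratios were 3.14 and 1.61, against -0.10 and -0.08 over all genes. Without *Mgp* in the venous list, a change made after the values were seen, 125 cells passed, *Vwf* was at 1681 CPM in them, and the same 6 were past 1.5-fold, where 18.2% of all genes were, with a median of 4.01 against -0.03. Their ratios were then 14.2 (12.2 to 16.6) for *Vcam1*, 24.0 (16.3 to 35.4) for *Selp*, 22.7 (17.4 to 29.8) for *Lrg1*, 22.6 (16.7 to 30.8) for *Plvap* and 3.40 (2.93 to 3.94) for *Icam1*. The lower *Vcam1* of arterial ECs did not hold in this setting, where the ratio was 1.44 (1.03 to 1.96). In arterial ECs 1 gene was up (*Icam2*), against 18.4%, and 5 were down (*Vcam1*, *Sele*, *Selp*, *Lrg1* and *Plvap*), against 19.4%, but *Sele* had 0 UMIs with a limit of 6.52 CPM, above the capillary 3.62 CPM. The median log2 ratio was -1.39, and at most -0.68 with *Sele* at its limit, against 0.03 over all genes. These arterial values are relative to a capillary gate that took in many cells of the Vwf/Cpe cluster described below. Those cells held 351 of its 570 *Vcam1*, 74 of its 85 *Selp*, 87 of its 151 *Lrg1* and 61 of its 104 *Plvap* UMIs. In capillary clusters *Vcam1* was at 40.8 CPM, below its arterial level, and *Selp* at 1.68 CPM, with 1 arterial UMI too few to compare. Arterial *Lrg1* and *Plvap* were not tested against these clusters. In lymphatic ECs 2 were up (*Lrg1* and *Plvap*), against 26.2%, and 4 were down (*Vcam1*, *Icam2*, *Sele* and *Selp*), against 38.1%, of which *Vcam1*, *Sele* and *Selp* had 0 UMIs, and the limit of 31.8 CPM was below the capillary level for *Vcam1* alone. The median log2 ratio was -0.75, against -0.15 over all genes. With the 3 genes at their limit it was 1.19, which is an upper bound, so that the sign of this median was not settled at this depth.

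**Figure D3:**
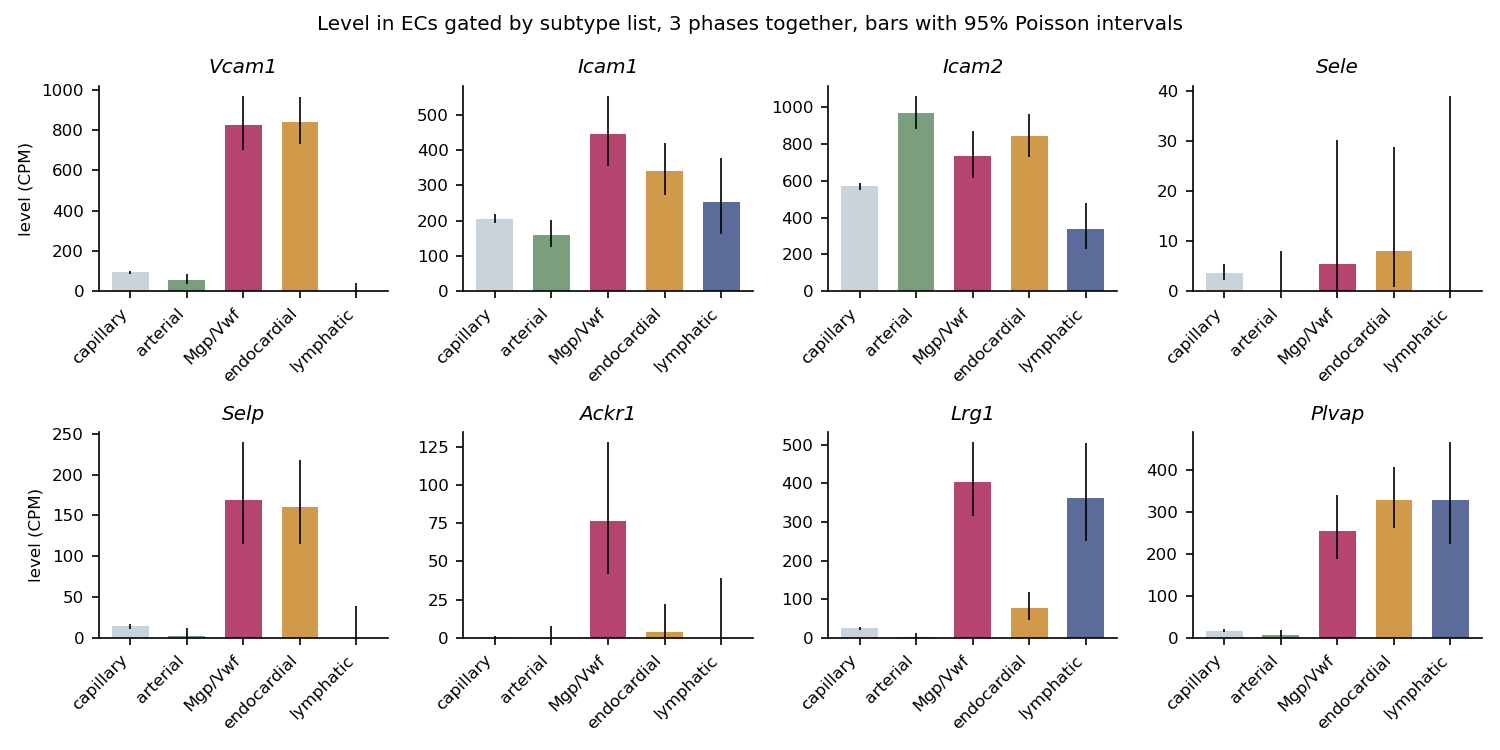
Level (CPM) of each gene in ECs gated by subtype list, the 3 phases together, with 95% Poisson intervals as error bars, where Mgp/Vwf marks the venous-list ECs and a bar of no height 0 UMIs. *Vcam1* and *Selp* are high in venous-list and endocardial-list ECs, *Lrg1* and *Plvap* also in lymphatic ECs, and *Icam2* is highest in arterial ECs.

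Clustering gave a sharper view, as a description of the same cells. The 3172 ECs formed 14 clusters when the 8 genes were left out of the features. A cluster of 274 cells led by *H19*, *Npr3*, *Vwf* and *Cpe* (the Vwf/Cpe cluster) held 111, 150 and 13 cells at 0, 2 and 12 weeks, or 10.1%, 8.49% and 4.22% of ECs. It was enriched for the venous list (2.05 times) and for the endocardial list (1.63 times), and it stays unnamed, since its leading genes belong to both. Of its cells 203 had passed as capillary, 43 as venous-list and 25 as endocardial-list, and it took 101 of the 125 cells picked without *Mgp*.

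The Vwf/Cpe cluster held 10.999% of all EC UMIs but all 18 UMIs of *Ackr1*, 76.0% of those of *Sele*, 72.6% of *Selp*, 64.6% of *Plvap*, 59.2% of *Lrg1*, 50.6% of *Vcam1* and 29.9% of *Icam1*. *Icam2*, at 10.6%, was the only member near the share of all UMIs. The levels were 625 CPM (571 to 683) for *Vcam1*, 584 CPM (531 to 639.9) for *Icam1*, 146 CPM (121 to 176) for *Selp*, 223 CPM (191 to 259) for *Lrg1* and 225 CPM (192 to 260.4) for *Plvap*. In the 11 clusters most enriched for the capillary list (2469 cells) they were 40.8 CPM (35.5 to 46.5), 163 CPM (153 to 175), 1.68 CPM (0.769 to 3.19), 8.97 CPM (6.62 to 11.9) and 7.48 CPM (5.34 to 10.2). The *Icam2* levels, 582 CPM (530.1 to 639) and 568 CPM (548 to 589), were alike within their counting error. A *Selp* UMI was in 18.6% of cells of the Vwf/Cpe cluster (median depth 2207.5 UMIs) and in 0.324% of capillary-cluster cells (1696 UMIs). The capillary group of the gate thus still held many cells with these genes. Of its 570 *Vcam1* UMIs 351 lay in its 203 cells of the Vwf/Cpe cluster, as did 16 of its 22 *Sele* UMIs, and the other 6 *Sele* UMIs lay in capillary clusters.

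Another cluster of 380 cells was led by *Gkn3*, *Gja5* and *Npnt* (the Gkn3/Cytl1 cluster). Its leading genes included *Gja5* and *Sema3g* of the arterial list and *Cytl1* of the endocardial list, and it held most cells of both gates (187 arterial and 62 endocardial-list). The cluster also held 44 venous-list ECs, against 43 in the Vwf/Cpe cluster. It was more enriched than the Vwf/Cpe cluster for the venous list (5.16 times), the endocardial list (6.73 times) and the arterial list (4.48 times). It had *Vcam1* at 307 CPM (271 to 347), *Icam2* at 919 CPM (855 to 986) and *Selp* at 38.2 CPM (26.2 to 54.0). A cluster of 49 cells led by *Ccl21a* and *Mmrn1*, lymphatic genes, had 0 *Vcam1* UMIs, with *Lrg1* at 550.4 CPM (427 to 699) and *Plvap* at 320.4 CPM (228 to 438). *Lrg1* and *Plvap* were thus high in the Vwf/Cpe cluster and in the lymphatic cluster, and *Vcam1* in the Vwf/Cpe and the Gkn3/Cytl1 clusters.

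**Figure D4:**
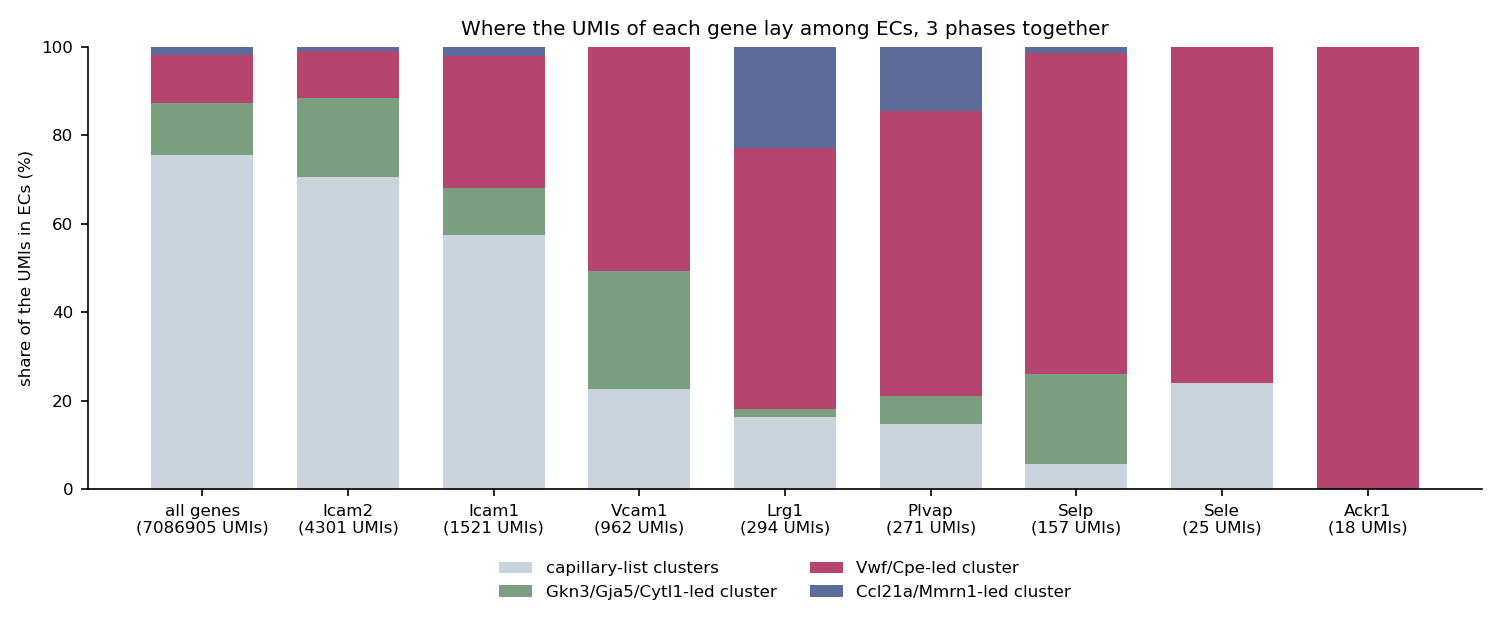
Share (%) of the EC UMIs of each gene, and of all genes, that lay in the Vwf/Cpe cluster, the Gkn3/Cytl1 cluster, the Ccl21a/Mmrn1 cluster and the capillary clusters, the 3 phases together. The Vwf/Cpe cluster holds 10.999% of all UMIs, 100% of those of *Ackr1* and 10.6% of those of *Icam2*.

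The genes were also found in the same cells. Of the 78 ECs with a *Selp* UMI 74.4% had *Vcam1*, against 8.86% of the other ECs, 66.7% had *Icam1* against 23.5%, and 38.5% had *Lrg1* against 2.52%. For *Icam2* the shares were 71.8% and 60.7%. ECs with a *Selp* UMI had a median of 2582.5 UMIs against 1739.5 in the others, so that depth moved with these shares. Of the 108 ECs with *Lrg1* 36.1% had *Plvap*, against 2.48% of the others (2621.5 and 1730.5 UMIs).

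With the ECs divided in this way the phases were compared again within each part. In the capillary clusters *Vcam1* was at 41.6 CPM (33.9 to 50.6), 39.8 CPM (32.5 to 48.3) and 41.9 CPM (22.9 to 70.3) at 0, 2 and 12 weeks, and its 12-week ratio was 1.01 (0.531 to 1.77). *Icam2* was at 491 CPM (464 to 520.2), 628 CPM (598 to 659) and 655 CPM (571 to 748), with ratios of 1.28 (1.19 to 1.38) and 1.33 (1.15 to 1.54). *Icam1* was at 157 CPM (142 to 174), 162 CPM (147 to 179) and 215 CPM (169 to 271). In the pooled capillary clusters *Vcam1* was thus level across the libraries, whereas *Icam2* had its higher values after TAC. The pool was not made of the same clusters in each library, since 377 of its 822 healthy cells lay in a cluster with 35 and 6 cells at 2 and 12 weeks, 401 of its 1416 cells at 2 weeks in one with 20 healthy cells, and 165 of its 231 cells at 12 weeks in the haemoglobin-led cluster described below, which held 4 healthy cells. In the 3 capillary clusters with at least 50 cells at both 0 and 2 weeks the *Icam2* ratio at 2 weeks was 1.34 (0.999 to 1.82), 1.38 (1.10 to 1.72) and 1.20 (0.914 to 1.59), so that it was above 1 in each and its interval left out 1 in 1 of them. *Vcam1* had 13 against 0, 1 against 2 and 42 against 9 UMIs in these clusters, too few for a ratio but in the last (1.07, 0.512 to 2.49). No such comparison was possible for 12 weeks. In the pool *Lrg1* at 2 weeks was at 2.53 times the healthy level (1.27 to 5.38, 33 against 12 UMIs) and *Plvap* at 4.21 times (1.82 to 11.3, 32 against 7 UMIs).

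In the Vwf/Cpe cluster *Lrg1* was at 84.8 CPM (58.4 to 119) at 0 weeks, 361 CPM (302 to 428) at 2 weeks and 369 CPM (177 to 679) at 12 weeks. Its ratios were 4.26 (2.89 to 6.44) and 4.35 (1.91 to 9.05), and the cells with a UMI were 12 of 111, 36 of 150 and 3 of 13. This was the largest ratio from 0 to 2 weeks with at least 50 UMIs among the 8 genes in these clusters, and the share of cells moved with it, 10.8% (5.71 to 18.1) and 24.0% (17.4 to 31.6), although the 2-week cells were shallower (1795 against 2764 UMIs). *Icam1* was at 465 CPM (400 to 538), 741 CPM (655 to 835) and 185 CPM (59.9 to 431), so that its 2-week ratio was 1.59 (1.31 to 1.93) and its 12-week ratio, from 5 UMIs, 0.397 (0.127 to 0.944). *Icam2* was at 1.44 times (1.19 to 1.75) the healthy level at 2 weeks, and *Vcam1*, at 591 CPM (517 to 672) and 649.9 CPM (569.6 to 738), had a ratio of 1.10 (0.913 to 1.32). *Ackr1* had 17 of its 18 UMIs there at 2 weeks, at 46.8 CPM (27.3 to 75.0) against 2.57 CPM (0.0650 to 14.3) in the healthy library.

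At 12 weeks the Vwf/Cpe cluster held 13 cells, so that its values are imprecise. *Selp* had 50, 64 and 0 UMIs at 0, 2 and 12 weeks, and the 12-week limit of 110.8 CPM was not far from the healthy 128 CPM (95.3 to 169). *Plvap* was at 1144.5 CPM (778 to 1624.5) from 31 UMIs in 5 cells, 21 of them in 1 cell, against 164 CPM (127 to 210.0) and 220.3 CPM (175 to 274) before. Its 12-week ratio of 6.96 (4.38 to 10.8) thus rested on 1 cell for most of its UMIs. Genes of the dissociation stress list summed to 27030 CPM in this cluster at 0 weeks, 21312 CPM at 2 weeks and 14176 CPM at 12 weeks, and their part in the ratios of *Icam1* was not tested.

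*Lrg1* was higher at 2 weeks in venous-list ECs too. It was at 228 CPM (127 to 375) at 0 weeks, 645 CPM (489.7 to 834) at 2 weeks and 35.9 CPM (0.910 to 200.2) at 12 weeks, with 15, 58 and 1 UMIs in 29, 46 and 17 cells. In endocardial-list ECs it was instead at 63.1 CPM (30.2 to 116) and 38.2 CPM (0.967 to 213) at 0 and 2 weeks, from 10 and 1 UMIs, and in lymphatic ECs at 386 CPM (259 to 555) and 209 CPM (43.0 to 610), from 29 and 3 UMIs, with intervals that overlapped. The 12-week cells of the venous-list gate had little *Lrg1*, whereas the 12-week cells of the Vwf/Cpe cluster had as much as those at 2 weeks, each from few cells. *Plvap* in capillary-gated ECs was at 5.41 CPM (3.03 to 8.92), 27.3 CPM (21.6 to 33.9) and 24.1 CPM (10.4 to 47.4), and its ratios were 5.04 (2.88 to 9.42) and 4.45 (1.63 to 11.2). In capillary clusters the 12-week value was 1 UMI, so that the higher *Plvap* of 12-week capillary-gated ECs did not hold there.

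ECs with interferon-response genes (257 cells), with *Apln* and the genes listed with it (139 cells) or with cell cycle genes (52 cells) were looked at for the same members. *Icam2* was at 574 CPM (510.3 to 644), 555 CPM (474 to 646) and 616 CPM (523 to 722) in them, and *Icam1* at 237 CPM (197 to 283), 149.7 CPM (109 to 200.3) and 234 CPM (177 to 302). *Vcam1* was at 37.2 CPM (22.4 to 58.1) and 26.6 CPM (11.5 to 52.4) in the first and second groups, near its level in capillary clusters. In ECs with cell cycle genes it was higher, at 145 CPM (102 to 201), but 97.2% of its 36 UMIs there lay in 5 cells. *Selp* had 1, 0 and 2 UMIs in the 3 groups. A cluster of 174 ECs, 165 of them of the 12-week library, was led by haemoglobin genes and had *Vcam1* at 37.6 CPM, *Icam1* at 192 CPM and *Icam2* at 602 CPM, with 0 UMIs of *Selp*. This cluster was thus not where the 12-week *Vcam1* lay.

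The 12-week *Vcam1* of ECs lay mostly in the Gkn3/Cytl1 cluster, with 104 of 139 UMIs in 14 of its 57 cells and 84.6% of them in 5 cells. Its level there was 287 CPM (233 to 351) at 0 weeks, 146 CPM (110.1 to 189) at 2 weeks and 901 CPM (736 to 1092) at 12 weeks, and the share of cells with a UMI was 22.4% (15.6 to 30.4), 12.7% (8.31 to 18.3) and 24.6% (14.1 to 37.8). The share at 12 weeks was thus close to that of the healthy library, and the ratio of levels of 3.13 (2.35 to 4.18) came from the UMIs per cell. *Selp* had 23, 5 and 4 UMIs in this cluster, at 0.191 times (0.0567 to 0.513) the healthy level at 2 weeks. The cluster made up 12.2%, 10.7% and 18.5% of ECs. In the gated groups the endocardial-list ECs had *Vcam1* at 769 CPM (639 to 919), 611 CPM (349 to 992.5) and 1105 CPM (865 to 1392), and they were 4.74%, 0.623% and 8.12% of ECs. With the subtype make-up of the healthy ECs the 12-week ratio over all ECs was 1.28 for *Vcam1* in place of 2.18, and 1.55 for *Plvap* in place of 2.39, whereas that of *Icam2* was 1.30 in place of 1.44. At a fixed make-up of the gated subtypes the *Vcam1* and *Plvap* ratios were thus closer to 1. A fixed make-up of the clusters was not computed, and the result above cannot be carried over to them. The Vwf/Cpe cluster was 10.1% of healthy ECs and 4.22% of 12-week ECs, with *Plvap* at 6.96 times the healthy level. In a sum over ECs fewer cells of a subtype and less RNA per cell cannot be told apart.

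**Figure D5:**
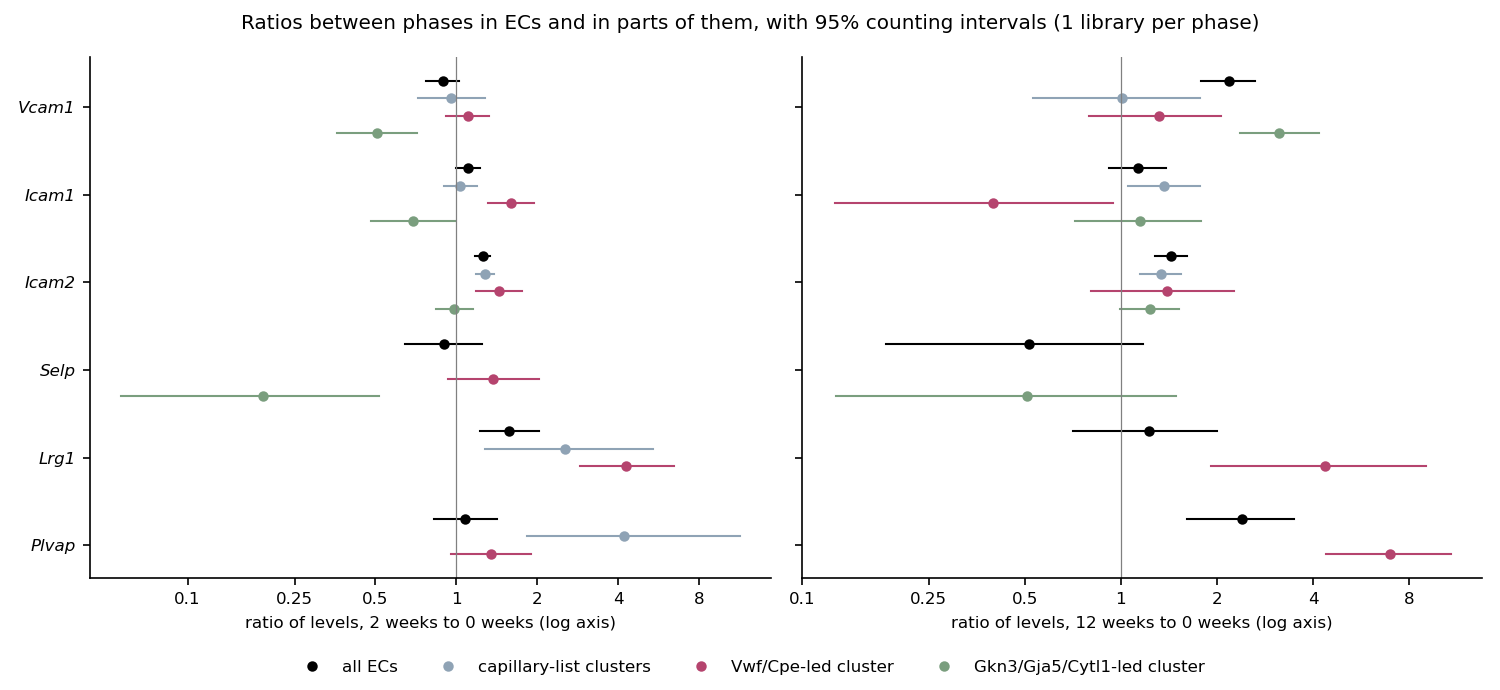
Ratio of levels at 2 and at 12 weeks to 0 weeks (log axis) for 6 of the genes in all ECs, in the capillary clusters, in the Vwf/Cpe cluster and in the Gkn3/Cytl1 cluster, with 95% counting intervals. *Sele* and *Ackr1* are not drawn, and points with under 20 UMIs over both phases or with 0 UMIs in a phase are left out. *Vcam1* at 12 weeks is at 3.13 in the Gkn3/Cytl1 cluster and 1.01 in the capillary clusters, and *Lrg1* at 2 weeks is at 4.26 in the Vwf/Cpe cluster.

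Other genes of the adhesion cascade were counted in ECs from lists set by function. Of the genes that encode leukocyte ligands and integrins 3 of 10 reached 20 UMIs from 0 to 2 weeks, with 0 past 1.5-fold up and 1 down, and 2 from 0 to 12 weeks, with 0 up and 1 down, *Cd44* (0.454, 0.178 to 0.970). *Pecam1*, *Cdh5*, *Emcn* and *Esam* of the other endothelial adhesion and junction genes also served the gate of ECs and were left out of the counts. Of the 9 others tested 3 were up at 2 weeks and 1 down. The largest was *Podxl*, a CD34-family sialomucin of the luminal membrane, at 2.85 times (2.62 to 3.10) at 2 weeks and 2.14 times (1.84 to 2.47) at 12 weeks, when 3 of 9 were up and 0 down. The median log2 ratios of the 9 were 0.20 and 0.57.

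The cytokine response list was mixed. At 2 weeks 6 of 21 were up, among them *Il6* at 5.10 times (4.02 to 6.53, 83 and 442 UMIs), the membrane chemokine *Cx3cl1* at 3.08 times (2.16 to 4.49) and the IL-6 receptor subunit *Il6st* at 1.87 times (1.60 to 2.18), and 1 was down, the monocyte chemokine *Ccl2* at 0.180 times (0.0774 to 0.370). The NF-kappaB inhibitor gene *Nfkbia*, itself a target of the pathway, was at 0.726 times (0.688 to 0.767). At 12 weeks 4 were up, with *Cx3cl1* at 4.08 times (2.38 to 6.87), and 6 down, with *Socs3* at 0.377 times (0.322 to 0.439) and *Irf1* at 0.532 times (0.438 to 0.640). The genes of this pathway thus did not move in 1 direction, with a median log2 ratio of 0.35 at 2 weeks and 0.03 at 12 weeks, against 0.02 and 0.10 over all genes. Genes of the dissociation stress list summed to 22951, 18492 and 17374 CPM in ECs at 0, 2 and 12 weeks, and their part in these ratios was not tested. Of the Weibel-Palade body and thrombo-inflammatory genes 0 of 9 were up and 1 down at 2 weeks and 6 up and 0 down at 12 weeks, with medians of -0.18 and 0.81. Among the 6 were *Edn1* (endothelin-1) at 2.61 times (2.10 to 3.22), *Thbd* (thrombomodulin) at 1.86 times (1.58 to 2.18) and *Vwf*, stored with P-selectin, at 1.52 times (1.18 to 1.96). Against capillary ECs 7 of these 9 genes were up in venous-list ECs (21.9% of all genes) and 6 in endocardial-list ECs (20.9%). Venous-list ECs were 2.64% of healthy and 5.52% of 12-week ECs, and endocardial-list ECs 4.74% and 8.12%. *Vwf* is itself on the venous list, and the part of this make-up in the 12-week ratios was not tested. For the comparisons between phases the background shares are those given above for ECs.

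The genes whose pattern was most like that of a member were sought over 25 groups of class by phase and EC subtype by phase, as Pearson's r of log2 levels, which share their libraries and differ in depth. *Icam2* was closest to *Ldb2* (r = 0.97), *Cdh13* (0.96) and *S1pr1* (0.96). *Icam1* was closest to *Stab1* (0.74) and *Nfkbia* (0.72), *Vcam1* to *Fam3c* (0.85) and *Selp* to *Slco2a1* (0.87). *Lrg1* was closest to *Fam174b* (0.83) and *Plvap* to *Tmem158* (0.90) and *Fam174b* (0.88). Between members the values were highest for *Lrg1* with *Plvap* (0.85) and *Selp* with *Plvap* (0.77), and lowest for *Icam1* with *Icam2* (0.23). *Icam2* was at 0.23 to 0.50 with the other members, and *Vcam1* at 0.43 with *Icam1* and with *Lrg1*.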

How the data were processed

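Single-cell RNA sequencing (Chromium 3′ v2) was made of 3 libraries, 1 per phase. The authors deposited a matrix of raw UMI counts per gene and cell for each, made per the submitters' processing notes with Cell Ranger 2.0.0 on mm10. Cells with at least 200 genes were kept (3892, 2231 and 792 cells). Classes (ECs, FBs, mural and blood cells, 10 markers each, with neural cells set apart) were gated by their UMI sums, at least 3 UMIs and at least 2 times any other class. EC subtypes needed at least 3 UMIs of a list and 3 times the amount expected from depth. Counts were summed per group and given as CPM. Doublets were not removed; Scrublet called 35, 2 and 5 cells.

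Genes past 1.5-fold were counted among those with at least 20 UMIs over both groups. With 1 library per phase there was no test, and intervals cover counting error only. Cells were thinned to 1000 UMIs for shares. ECs were clustered (Leiden, resolution 1) without the 8 genes. Likeness was Pearson's r of log2(CPM + 10) over profiles of at least 20000 UMIs, and the 3 closest genes of each member were eligible for naming. Other genes were named where they were on a list, had at least 50 UMIs and were past 1.5-fold, at most 5 per list, direction and comparison. *Nfkbia*, the gating markers and *Cadm3* were named outside this rule after their values were seen. The members and lists were chosen with earlier results of these data known. The motifs, the venous list without *Mgp*, the cluster comparisons, the list counts without gating genes, the fixed make-up, the alternatives for FBs and the blood types were added after the data were seen. The scripts were tested on simulated data and used Python 3.11.15, numpy 2.4.6, scipy 1.17.1, pandas 2.3.3, scanpy 1.11.5, leidenalg 0.10.2 and matplotlib 3.10.9.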

Additional observations from a re-analysis of the deposited data

Results flagged for a closer look

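*Icam1* had ratios on opposite sides of 1 in 2 classes. From 0 to 12 weeks it was 2.50 in FBs and 0.498 in blood cells, and from 0 to 2 weeks 1.85 in FBs and 0.577 in blood cells. The difference between the classes was not tested, since each phase was 1 library. In cells with macrophage and monocyte markers the 12-week ratio was 0.879.

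Cells that passed no class gate were in no comparison of the report. In them *Icam2* was at 440.03 CPM at 2 weeks against 294.3 CPM at 0 weeks, with EC markers at 4727 and 4590.1 CPM in sum. *Ackr1* was at 69.1 CPM at 2 weeks against 0 UMIs at 0 weeks. All 11 of these *Ackr1* UMIs lay in 1 cell of 7070 UMIs, which held 46 UMIs of EC markers, 69 of mural markers, 29 of the venous list and 0 of erythroid genes, with 5 UMIs of *Selp*, 8 of *Lrg1* and 12 of *Plvap*.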

How the results depend on the processing

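Of 554 values computed under alternative settings, 475 were counted as kept. A ratio was kept inside the counting interval of its main value, and a count within 1.5 times its main value. The 11 reversed values were ratios past 1.5-fold that lay on the other side of 1, and the other 68 moved. Smaller ratios that crossed 1 were not counted as reversed, so that sign changes can be among the 475 and the 68. The cause was not tested. In ECs from 0 to 2 weeks the count past 1.5-fold up (1) was 0 at a class gate ratio of 4 and 0 as a mean over cells, and 2 without the UMI minimum, in capillary-gated ECs and in the capillary clusters. The count down (1) was 2 as a mean over cells, 0 at a minimum of 50 UMIs and 0 in the capillary clusters. From 0 to 12 weeks the count up (2) was 0 as a mean over cells and 0 in the capillary clusters, and the count down (1) was 2 without a gate ratio, 3 without a minimum and 0 in the capillary clusters. From 2 to 12 weeks the count up (2) was 1 as a mean over cells, 0 in capillary-gated ECs and 0 in the capillary clusters, and the count down (1) was 3 without a minimum and 2 in capillary-gated ECs. The 12-week *Plvap* ratio to 2 weeks in ECs (2.21) was 0.883 in capillary-gated ECs and 0.244 in the capillary clusters. In FBs the 2-week *Icam2* ratio (1.67) was 0.920 without a gate ratio, 0.648 at a ratio of 4 and 0.777 as a mean over cells, and the 12-week *Plvap* ratio (0.604) was 1.09 at a ratio of 4. Between EC subtypes, *Vcam1* in arterial ECs (0.625) was 1.44 without *Mgp* in the venous list, and *Sele* in venous-list ECs (1.504) was 0 at a depth ratio of 5. With clusters in place of gates, endocardial *Sele* (2.21) was 0, endocardial *Lrg1* (3.06) was 0.666 and lymphatic *Selp* (0) was 9.76.

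No paired analysis was possible because each phase was 1 library, and for the same reason no replicate could be left out. Depth limited *Sele*, *Ackr1* and *Selp* most, with 41, 50 and 242 UMIs in all cells, and the 308 ECs of the 12-week library. *Ackr1* shares bases with *Cadm3*, and free RNA and doublets were not removed.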
